A study of Mus musculus with 8 samples.

Results

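The small heat shock proteins described here are the products of *Hspb7*, *Hspb1* (HSP27), *Hspb6* (HSP20), *Hspb8* (HSP22) and *Cryab* (αB-crystallin), taken by their symbols from a table of read counts. They are 5 of the 45583 gene symbols in that table, and 5 of 5 passed the filter on low counts, after which 16601 genes were tested. The set was chosen by the difference of *Hspb7* counts between the groups in these same libraries, with its relatives added by family name, so the comparison of GOAT KO with WT is given for the 5 members as a description, without a test. The libraries were made from whole ovaries of 3-week-old C57/Bl6 mice, 1 library per mouse. In 4 mice the gene for ghrelin-O-acyltransferase (GOAT), the enzyme that attaches a fatty acid to the hormone ghrelin, was labelled as knocked out in the whole animal (GOAT KO), and 4 mice were labelled WT. The labels name no treatment, and both groups came from matings of heterozygous parents.

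Small heat shock proteins share an α-crystallin domain and assemble into oligomers. They bind unfolding proteins without using ATP and hold them until the HSP70 machinery refolds or degrades them. *Hspb1* and *Cryab* are classical targets of the heat shock transcription factor HSF1, whereas *Hspb6*, *Hspb7* and *Cryab* are best known from cardiac, skeletal and smooth muscle. In the ovary, smooth muscle surrounds blood vessels and lies in the theca externa of growing follicles.

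Totals of counts on genes ranged from 16147216 to 19481798 per library. *Mboat4*, the gene that encodes GOAT, had 1, 1, 1 and 3 counts in the libraries labelled WT. In those labelled GOAT KO it had 5, 7, 7 and 8 counts. These few counts ran against the labels, but *Mboat4* did not pass the filter on low counts and was not tested. Directions below refer to the libraries as labelled. Counts per gene do not say which part of *Mboat4* these reads cover. GOAT KO 1139 stood apart by its adipose tissue markers: the 6 genes of that list summed to 476 counts per 1000000 (CPM, scaled by the TMM method), against 18.7 to 30.9 in the other GOAT KO libraries and 13.6 to 28.6 in WT. It also stood apart in 2 steroid synthesis genes, *Star* at 234 CPM (8.14 to 20.5 in the other GOAT KO libraries) and *Cyp17a1* at 601 CPM (42.4 to 138). In WT 1120 *Cyp17a1* measured 355 CPM (50.2 to 58.7 in the other WT libraries), and aromatase, *Cyp19a1*, 65.0 CPM (5.06 to 9.70). By the chi-square per gene between libraries of one group, GOAT KO 1139 differed from the other GOAT KO libraries by 11.001 to 14.002, against 4.51 to 6.28 among those 3. WT 1120, whose adipose sum of 19.2 CPM lay inside the WT range, differed from the other WT libraries by 16.5 to 24.97, against 3.96 to 8.95 among those 3. Values without GOAT KO 1139 and WT 1120 (6 libraries, 3 per group) are given beside those from all 8 for the members and where they change a call. Ovarian markers were present in every library, with summed CPM of 1015 to 1229 for 8 oocyte genes and 4671 to 6027 for 8 granulosa cell genes. In these bulk samples, fewer cells of a type and less RNA per cell cannot be told apart.

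The DNA at the start sites of members is shown because HSF1 binds inverted repeats of GAA and TTC. *Cryab* had no entry among the start regions used. The other members differ in whether the letters searched for are present, and binding of HSF1 was not measured. RefSeq start regions (GRCm38.p6, 250 bases before to 50 bases after the start) were searched on both strands for GAANNTTC, the head-to-head form, and for TTCNNGAA, the tail-to-tail form. Of all 32851 start regions, 7.86% held the former and 8.52% the latter. The regions below run 5′ to 3′ on the gene's strand, and capitals mark GAANNTTC.
Hspb7, chr4:141420529-141420828, plus strand: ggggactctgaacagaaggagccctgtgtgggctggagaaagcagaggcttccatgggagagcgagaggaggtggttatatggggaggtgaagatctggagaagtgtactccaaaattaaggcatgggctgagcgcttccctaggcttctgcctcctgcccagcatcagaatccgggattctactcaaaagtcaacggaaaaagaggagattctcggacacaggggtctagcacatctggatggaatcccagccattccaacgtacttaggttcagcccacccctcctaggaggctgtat
Hspb1, chr5:135887669-135887968, plus strand: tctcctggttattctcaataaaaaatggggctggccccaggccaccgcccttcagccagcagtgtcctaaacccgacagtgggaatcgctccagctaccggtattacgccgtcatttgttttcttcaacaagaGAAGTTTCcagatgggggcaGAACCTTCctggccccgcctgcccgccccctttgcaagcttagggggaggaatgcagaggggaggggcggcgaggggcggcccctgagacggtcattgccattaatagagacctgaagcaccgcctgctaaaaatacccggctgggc
Hspb6, chr7:30553051-30553350, plus strand: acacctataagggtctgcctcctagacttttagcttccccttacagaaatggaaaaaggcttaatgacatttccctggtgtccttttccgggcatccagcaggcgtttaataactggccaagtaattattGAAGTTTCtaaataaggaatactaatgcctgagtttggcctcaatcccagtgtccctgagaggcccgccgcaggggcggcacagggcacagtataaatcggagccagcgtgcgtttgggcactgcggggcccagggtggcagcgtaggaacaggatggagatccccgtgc
Hspb8, chr5:116422815-116423114, minus strand: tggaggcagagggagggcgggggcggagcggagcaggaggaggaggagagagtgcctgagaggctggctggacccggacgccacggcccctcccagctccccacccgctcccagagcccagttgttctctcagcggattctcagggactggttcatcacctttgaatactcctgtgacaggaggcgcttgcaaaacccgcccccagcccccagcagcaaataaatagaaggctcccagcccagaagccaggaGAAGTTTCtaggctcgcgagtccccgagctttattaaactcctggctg
The *Hspb1* region held GAANNTTC at positions -117 and -97 from the start. The *Hspb6* region shown, that of its downstream start, held it at -120 and also held TATAAA, found in 13.6% of all start regions, at -29. In *Hspb8* the match lay at position 3, past the start. Neither arrangement was found in the *Hspb7* region or at the upstream *Hspb6* start (chr7:30552290-30552589), which says only that these letters are not in those windows.

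*Hspb7*, a small heat shock protein of heart and muscle that binds the actin cross-linker filamin C, is on chromosome 4 (GRCm38, 141420779 to 141425311, plus strand, 3 exons). It had 39, 35, 38 and 26 counts in WT 1118, 1119, 1120 and 1121, or 2.42, 1.94, 2.09 and 1.42 CPM. In GOAT KO 1139, 1140, 1141 and 1146 it had 37, 60, 69 and 119 counts, or 2.21, 3.67, 3.53 and 6.92 CPM. Thus 3 of 4 GOAT KO libraries lay above every WT library, GOAT KO 1146 highest of all, while GOAT KO 1139 lay among the WT values and the groups overlapped. Counting error alone is wide at this depth, with 95% Poisson intervals of 1.72 to 3.30 CPM in WT 1118, 1.56 to 3.05 CPM in GOAT KO 1139 and 5.73 to 8.28 CPM in GOAT KO 1146. Means were 1.97 ± 0.416 CPM in WT against 4.08 ± 1.999 CPM in GOAT KO (SD, n = 4 each), a log2 fold change of 1.06 (SE 0.32).

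*Hspb7* was the member that passed the study's thresholds (unadjusted p under 0.05 with a log2 fold change over 0.5 in either direction), which is how the set came about. This is 1 of 5 members, where 1.67% of all genes tested passed (278 genes, 0.958% higher and 0.717% lower), and nothing can be read from that count. An adjusted p under 0.05 was reached by 4 genes (0.0241%), and by 0 of the 5 members. With GOAT KO 1146 left out the log2 fold change was 0.68, and with GOAT KO 1139 left out it was 1.26. In the 6 libraries it was 1.29 (SE 0.30), and all 3 GOAT KO libraries there lay above the 3 WT libraries. Of all genes tested in the 6 libraries, 15.7% had values that did not overlap between the groups, and 2.39% passed the thresholds (1.32% higher and 1.08% lower).

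**Figure D1:**
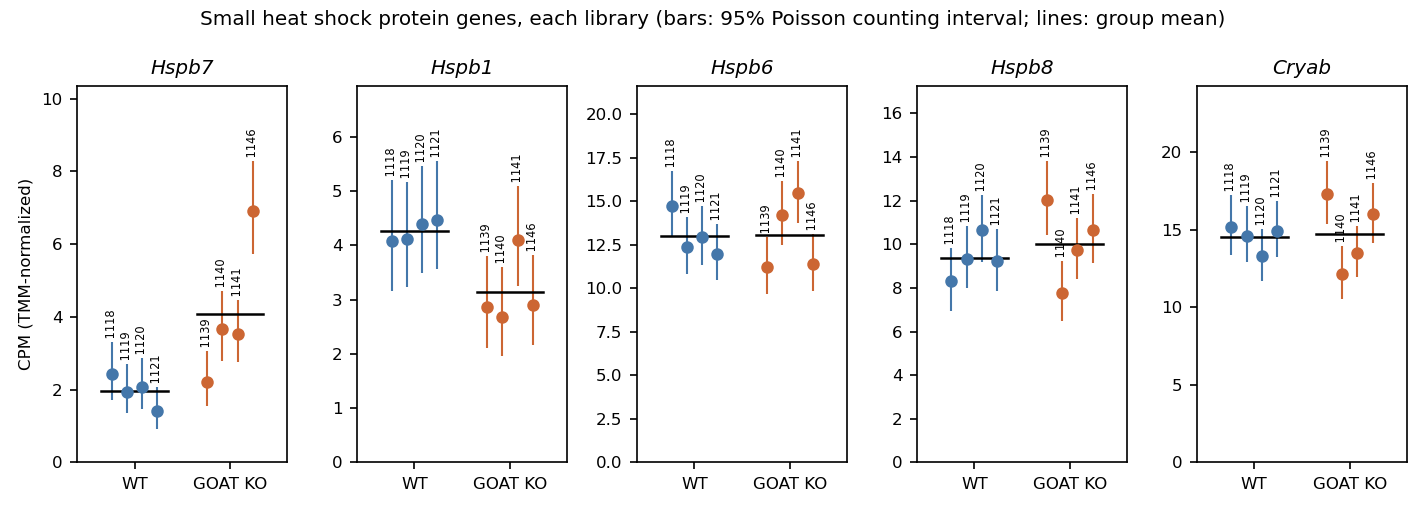
TMM-normalized CPM of the 5 members in each library (points, labelled by animal number), with 95% Poisson counting intervals (bars) and group means (lines); each panel has its own scale from 0. *Hspb7* is highest in GOAT KO 1146 at 6.92 CPM and low in GOAT KO 1139 at 2.21 CPM, *Hspb1* is lower in 3 of 4 GOAT KO libraries, and the groups overlap for *Hspb6*, *Hspb8* and *Cryab*.

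*Hspb1*, the widely expressed HSP27 that stabilises actin filaments and is induced by stress, is on chromosome 5 (135887919 to 135889563, plus strand). In WT it measured 4.09, 4.11, 4.39 and 4.47 CPM, from 66, 74, 80 and 82 counts. In GOAT KO 1139, 1140, 1141 and 1146 it measured 2.87, 2.69, 4.10 and 2.91 CPM, from 48, 44, 80 and 50 counts. The WT values were close together and 3 of 4 GOAT KO libraries lay below all of them, with GOAT KO 1141 alone at the WT level. The log2 fold change was -0.44 (SE 0.16), with means of 4.27 ± 0.194 CPM in WT against 3.14 ± 0.644 CPM in GOAT KO (SD, n = 4 each). It was -0.60 without GOAT KO 1141 and -0.38 (SE 0.19) in the 6 libraries, and it stayed under the size threshold in all 8 and in the 6 libraries. *Hspb1* lay on the other side of 0 from *Hspb7* in all 8 libraries, in the 6 libraries and with each library left out in turn.

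*Hspb6*, phosphorylated by cyclic nucleotide-dependent kinases when smooth muscle relaxes, is on chromosome 7 (30552178 to 30555443, plus strand). It measured 14.7, 12.4, 13.0 and 11.99 CPM in WT against 11.2, 14.2, 15.5 and 11.4 CPM in GOAT KO. The GOAT KO libraries spanned the whole WT range on both sides. The fitted log2 difference was 0.01 (SE 0.12), with means of 13.0 ± 1.21 CPM in WT against 13.1 ± 2.10 CPM in GOAT KO (SD, n = 4 each). It was 0.07 (SE 0.14) in the 6 libraries.

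*Hspb8*, the partner of the co-chaperone BAG3 in the selective disposal of damaged proteins, is on chromosome 5 (116408491 to 116422864, minus strand). It measured 8.30, 9.33, 10.6 and 9.21 CPM in WT, and 12.03, 7.76, 9.73 and 10.6 CPM in GOAT KO 1139, 1140, 1141 and 1146. Its highest value was thus in GOAT KO 1139, the library rich in adipose markers, and its lowest in GOAT KO 1140. The fitted log2 difference was 0.10 (SE 0.14), from means of 9.37 ± 0.966 CPM in WT against 10.04 ± 1.79 CPM in GOAT KO (SD, n = 4 each). Without GOAT KO 1139 it was 0.00, and in the 6 libraries 0.07 (SE 0.14).

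*Cryab*, the αB-crystallin of lens and muscle, is on chromosome 9 (50751325 to 50756636, plus strand). In WT it measured 15.2, 14.6, 13.3 and 14.9 CPM, and in GOAT KO 1139, 1140, 1141 and 1146 it measured 17.3, 12.2, 13.5 and 15.98 CPM. As for *Hspb8*, GOAT KO 1139 was highest and GOAT KO 1140 lowest, and the WT values lay inside that span. Means were 14.5 ± 0.846 CPM in WT against 14.7 ± 2.32 CPM in GOAT KO (SD, n = 4 each), with a log2 fold change of 0.02 (SE 0.12) in all 8 libraries and -0.10 (SE 0.12) in the 6 libraries. Whether adipose or steroid-producing cells contributed to the values of *Cryab* and *Hspb8* in GOAT KO 1139 was not tested.

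**Figure D2:**
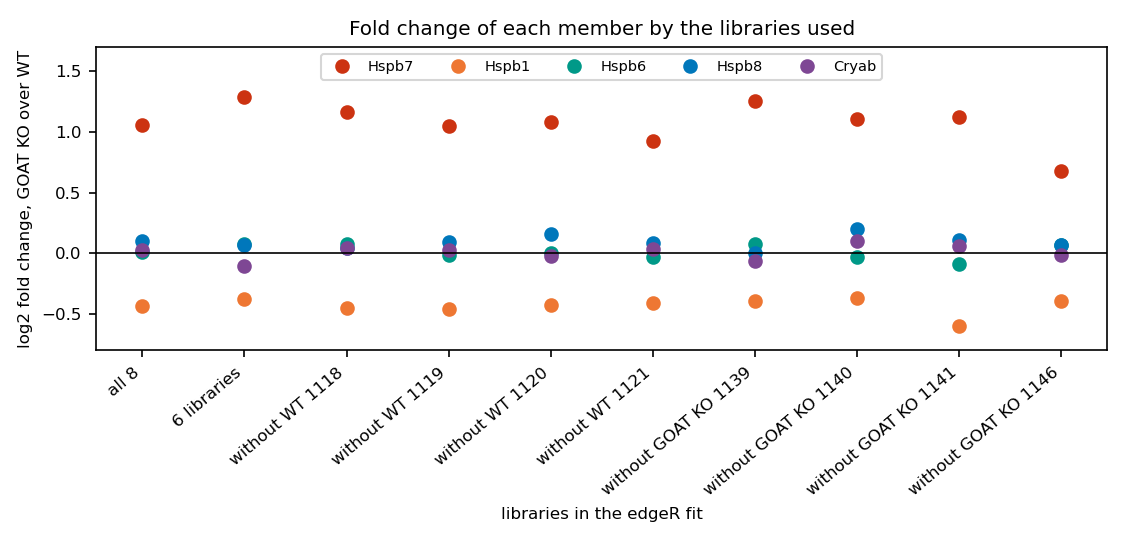
Log2 fold change of GOAT KO over WT for each member (points) in the edgeR fit of all 8 libraries, of 6 libraries (without WT 1120 and GOAT KO 1139) and with each library left out in turn. *Hspb7* stays between 0.68 and 1.29 and *Hspb1* between -0.60 and -0.37, while *Hspb6*, *Hspb8* and *Cryab* stay within -0.10 and 0.20.

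The spread among GOAT KO libraries was wider than among WT libraries for each of the 5 members. On the log2 CPM scale the SD in GOAT KO and in WT was 0.66 and 0.31 for *Hspb7*, 0.26 and 0.06 for *Hspb1*, 0.23 and 0.13 for *Hspb6*, 0.26 and 0.15 for *Hspb8*, and 0.23 and 0.09 for *Cryab*. The ratio of the highest to the lowest library was 4.88 for *Hspb7* and 1.37 to 1.66 for the others. This difference in spread was not tested. How many of all genes tested share it was not counted, so nothing particular to the members can be read from it.

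The family has further mouse genes, of which *Hspb2*, the partner of *Hspb3* in muscle, was the one measured well. *Hspb2* stands head to head with *Cryab* on the opposite strand (chromosome 9, 50751078 to 50752354) and the 2 genes overlap, so that reads in the shared stretch cannot be told apart if the strand was not used in counting. *Hspb2* measured 4.77, 5.39, 4.06 and 6.65 CPM in WT against 4.31, 4.16, 4.66 and 4.59 CPM in GOAT KO, so that the GOAT KO values lay inside the WT range. Its log2 fold change of -0.24 (SE 0.16) did not pass the test (adjusted p = 0.983, quasi-likelihood test of edgeR, Benjamini-Hochberg over all genes). *Hspb3*, *Hspb9*, *Cryaa* and *Odf1* had 0 to 3 counts in every library and were not tested.

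Levels were compared between genes after dividing CPM by the length of the annotated exons. *Cryab* was the most abundant at 9.88 ± 1.10 CPM per kb (SD, n = 8), above 60.7% of the 15794 genes with a known length. *Hspb2* followed at 5.78 ± 1.02, *Hspb6* at 5.68 ± 0.691, *Hspb8* at 4.98 ± 0.706 and *Hspb1* at 3.59 ± 0.723 CPM per kb. *Hspb7* was the scarcest at 1.09 ± 0.632 CPM per kb, above 18.3% of genes, so that its log2 fold change concerned a weakly expressed gene. Neighbours in this order were compared within each library by a two-sided exact permutation test over sign flips, adjusted over 5 pairs. The smallest unadjusted p possible is 0.00781. The order came from the means of these same libraries, so the directions were not chosen independently. An error in the length used for a gene would recur in every library. *Cryab* exceeded *Hspb2* by 0.78 on the log2 scale, *Hspb8* exceeded *Hspb1* by 0.49, and *Hspb1* exceeded *Hspb7* by 1.86, each in 8 of 8 libraries (exact permutation test, adjusted p = 0.0130). The last of these means pools groups that did not overlap: *Hspb1* lay above *Hspb7* by 2.18 to 3.08 in WT (mean 2.57) and by 0.17 to 1.80 in GOAT KO (mean 1.15), which includes the *Hspb7* difference that chose the set. *Hspb8* lay above *Hspb1* by a mean of 0.21 in WT and 0.76 in GOAT KO. *Hspb2* and *Hspb6* (0.02, adjusted p = 0.883, exact permutation test, higher in 4 of 8 libraries) and *Hspb6* and *Hspb8* (0.19, adjusted p = 0.186, exact permutation test, higher in 6 of 8 libraries) were not separated beyond their spread.

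**Figure D3:**
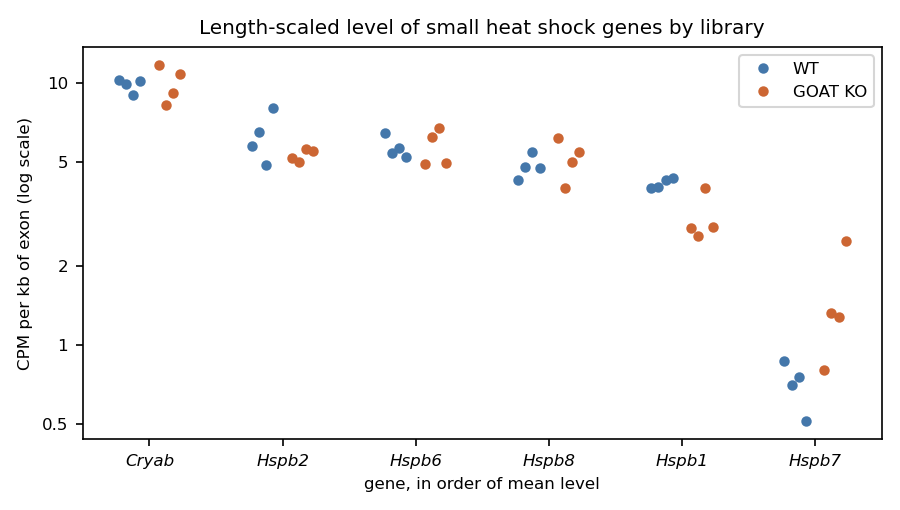
Length-scaled level (CPM per kb of annotated exon, log scale) of the 5 members and *Hspb2* in each library (points, coloured by group), ordered by mean level. *Cryab* lies above the rest at 9.88 CPM per kb on average and *Hspb7* below at 1.09 CPM per kb, with *Hspb2*, *Hspb6* and *Hspb8* close together.

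Reads that cross splice junctions, deposited as a separate list per library, showed which exons were joined. For *Hspb7* they numbered 1, 0, 0 and 0 in WT and 1, 3, 4 and 7 in GOAT KO 1139, 1140, 1141 and 1146, or 16 reads beside 423 counts on the gene. Of these, 15 joined annotated exons. The joins are shown as the 20 bases before and the 20 bases after each junction in the GENCODE M21 transcript Hspb7-201, with the downstream exon in capitals, because these reads tie the counts to spliced *Hspb7* RNA.
Exon 1 to exon 2: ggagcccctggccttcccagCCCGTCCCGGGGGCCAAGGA
Exon 2 to exon 3: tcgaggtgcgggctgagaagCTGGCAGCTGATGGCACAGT
The join of exons 1 and 2 had 4 reads, all in GOAT KO 1141, and the join of exons 2 and 3 had 11 reads, of which 1 was in WT 1118, 1 in GOAT KO 1139, 3 in GOAT KO 1140 and 6 in GOAT KO 1146. The authors' assembly of transcripts held *Hspb7* in 1 of 8 libraries, GOAT KO 1146, from 141422497 to 141425282, which covers the second exon and the third and lacks the first. These reads come from the same libraries as the counts and are a description of them.

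The other members differed in how their reads were joined. *Cryab* had 184 junction reads beside 2051 counts (8.97%), and the last join, shared by its 6 annotated transcripts, held 140 of them, 73 in WT and 67 in GOAT KO. *Hspb8* had 44 junction reads, all across the join of its first and second exons, 20 in WT and 24 in GOAT KO, 13 of these in GOAT KO 1146. For *Hspb6*, the first exon of the downstream start shown above was joined by 10 reads, in GOAT KO 1139, 1140 and 1146, and that of the upstream start by 4 reads, in WT 1119, WT 1120 and GOAT KO 1139. With so few reads, and with several junctions listed in some libraries only, no difference in start site use can be read from them. *Hspb1* had 1 junction read beside 524 counts (0.191%), at a join that GENCODE does not list, and none across either annotated intron, although transcripts were assembled at *Hspb1* in 8 of 8 libraries. In each library these came as 2 separate pieces, one over the first exon and one farther downstream, which in WT 1118 covered the last exon alone.

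Partners of the small heat shock proteins were looked up next. Since 1.67% of all genes tested were called, a count of 0 called in a list of 4 to 19 genes is near the background and says nothing about the list. Of 8 genes of the *Hspb8*-*Bag3* and filamin list, 8 were tested and 0 were called by edgeR or by DESeq2, with 1 gene at an unadjusted p under 0.05 and a median log2 fold change of -0.04, against -0.00035 over all genes tested. That gene was *Hspa8*, the constitutive HSC70, at 502, 303, 349 and 283 CPM in WT against 283, 271, 262 and 285 CPM in GOAT KO. WT 1118 stood high and the log2 fold change was -0.38 (SE 0.15, adjusted p = 0.983, edgeR). *Bag3*, the co-chaperone that binds *Hspb8*, measured 56.2 to 82.8 CPM in WT and a mean of 58.9 ± 6.68 CPM in GOAT KO (log2 fold change -0.20, SE 0.12, adjusted p = 0.983, edgeR). *Flnc*, the filamin that *Hspb7* binds, had means of 55.4 ± 1.77 CPM in WT against 55.8 ± 6.36 CPM in GOAT KO, a log2 fold change of 0.01 (SE 0.08, adjusted p = 0.995, edgeR). *Flna*, the filamin of most cells, and *Sqstm1*, an autophagy receptor, had log2 fold changes of 0.00 and -0.09.

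Genes of the heat shock response were compared because *Hspb1* and *Cryab* are among HSF1's targets. All 19 genes of the list were tested, 0 were called by edgeR or DESeq2, and 4 (*Hspa8*, *Stip1*, *Hsp90aa1* and *Chordc1*) had an unadjusted p under 0.05, all with a log2 fold change under 0, where 4.62% of all genes tested (767) had one. The median log2 fold change was -0.09, with values from -0.38 to 0.40 and 5 of 19 above 0. The most abundant, the HSP90 gene *Hsp90ab1*, the collagen chaperone *Serpinh1* and the HSP110 family member *Hspa4*, had log2 fold changes of -0.05, 0.02 and -0.10. The stress-induced HSP70 gene *Hspa1b*, named here for its role, measured 4.40, 4.50, 6.97 and 3.54 CPM in WT against 12.2, 3.48, 3.99 and 5.99 CPM in GOAT KO, with its highest value in GOAT KO 1139, where *Hspb7* was at the WT level. In GOAT KO 1146, the library highest in *Hspb7*, *Hspa1b* was within the WT range. *Hspa1a*, of the same list, measured 2.73, 2.89, 2.80 and 3.22 CPM in WT against 5.68, 3.30, 2.97 and 2.38 CPM in GOAT KO. Whether the *Hspb7* values were related to those of these genes was not tested. Of 4 heat shock factor genes and *Hsbp1*, a protein that binds these factors, 4 were tested, with 0 called by edgeR or DESeq2 and 0 at an unadjusted p under 0.05, *Hsf1* at -0.04, *Hsf2* at 0.01, *Hsf5* at 0.19 and *Hsbp1* at -0.04. Of 12 immediate early genes, which respond to handling of tissue, 0 were called by edgeR or DESeq2 and 0 had an unadjusted p under 0.05, and their median was -0.17, with the 3 most abundant, *Egr1*, *Jun* and *Nr4a1*, at -0.23, -0.22 and -0.16.

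Muscle markers were followed because *Hspb6*, *Hspb7* and *Cryab* are muscle genes. Of 12 smooth muscle genes, 12 were tested and 0 were called by edgeR or DESeq2, 0 had an unadjusted p under 0.05, and the median log2 fold change was 0.06. Their summed CPM was 2780 to 3170 in WT and 2728 to 3444 in GOAT KO, with the highest sum in GOAT KO 1146, which also had the highest *Hspb7*, and the lowest in GOAT KO 1140, which had the second highest. *Acta2*, smooth muscle actin, *Myh11*, smooth muscle myosin, and *Mylk*, its light chain kinase, had log2 fold changes of 0.06, -0.06 and -0.04. The part of smooth muscle in the *Hspb7* values was not tested. Among 14 heart and skeletal muscle genes, 10 were tested and 2 were called, both lower: *Myh6*, the α-myosin of the atria (log2 fold change -1.99, SE 0.35, adjusted p = 0.306, edgeR), and *Myh7*, the β-myosin (-0.52, SE 0.23, adjusted p = 0.983, edgeR). In the 6 libraries *Myh6* was lower by the adjusted test as well (log2 fold change -2.05, SE 0.15, adjusted p = 0.000162, edgeR). These leave out WT 1120, the WT library lowest in *Myh6*, at 5.76 CPM against 15.4 to 18.8 CPM in the other WT libraries. *Myh7* was not called in the 6 libraries (-0.45, SE 0.28), and DESeq2 called 1 of the list in all 8. The cardiac light chains *Myl2* and *Myl3* had 0 to 2 counts per library, and the summed CPM of the list, mostly *Tnni3* and *Mybpc3*, was 242 to 355 in WT and 237 to 297 in GOAT KO. Over the 10 tested genes of this list the median log2 fold change was 0.01, 5 lay above 0, and 3 had an unadjusted p under 0.05, of which *Ttn*, titin, was positive (0.30, SE 0.13, adjusted p = 0.983, edgeR). *Tnni3* and *Mybpc3* were at -0.02 and -0.26.

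**Figure D4:**
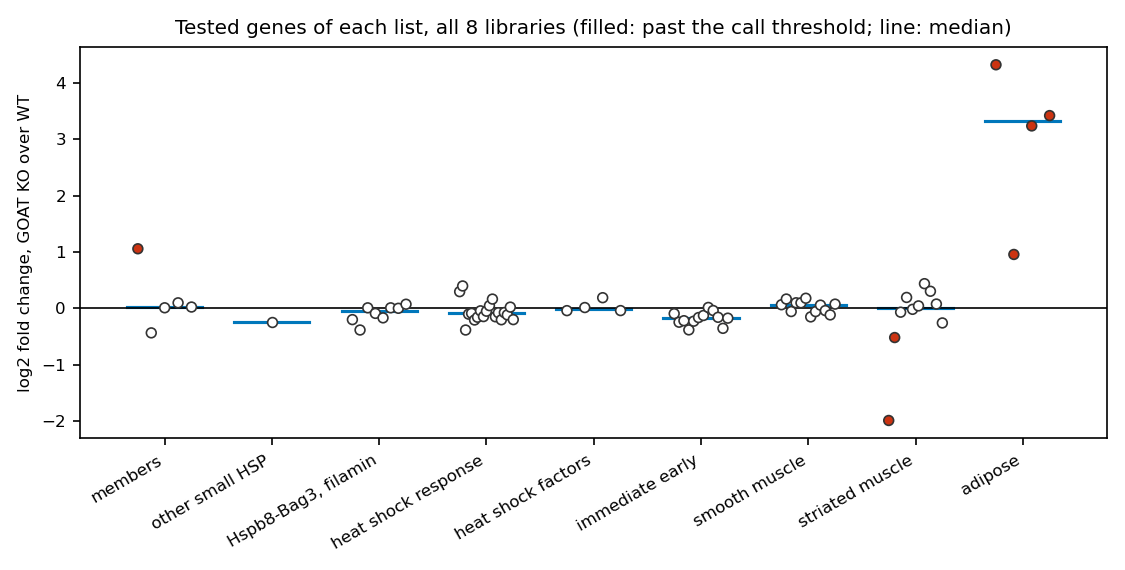
Log2 fold change of GOAT KO over WT (all 8 libraries) for the members and the tested genes of 8 lists (points; filled points passed the thresholds, lines are medians). The medians of the chaperone, heat shock and muscle lists lie between -0.24 and 0.06, whereas the 4 tested adipose genes lie between 0.96 and 4.32.

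Markers of other cells in or near the ovary were counted in the same way. All 4 tested adipose genes (*Adipoq*, *Cidec*, *Fabp4* and *Plin1*) were called higher by edgeR in all 8 libraries, but 1 by DESeq2, 0 by edgeR without GOAT KO 1139, and 1 (*Plin1*) by edgeR in the 6 libraries. *Inhba*, an inhibin and activin subunit, was the one called granulosa gene of 8 (log2 fold change 0.95, SE 0.36, adjusted p = 0.983, edgeR), and 3 were called in the 6 libraries. The *Inhba* call was lost, with 0 granulosa genes called, when WT 1118, WT 1119, WT 1121 or GOAT KO 1146 was left out. The 3 most abundant of that list, *Inha*, *Nr5a2* and *Amh*, were at 0.09, 0.13 and -0.21. In the lists of oocyte (8 tested), theca and steroidogenic (5), surface epithelium (6), oviduct (4), leukocyte (5) and blood (5) genes, 0 were called by edgeR or DESeq2, and 1 gene, *Figla* of the oocyte list, had an unadjusted p under 0.05. The 3 most abundant genes of each were *Gdf9*, *Zp2* and *Zp3* in oocytes (log2 fold changes of 0.03, 0.14 and 0.09), *Hsd3b1*, *Cyp11a1* and *Cyp17a1* in theca (0.15, 0.28 and 0.68, the last with an SE of 0.87), and *Upk3b*, *Krt8* and *Msln* in surface epithelium (0.05, -0.21 and 0.15). For *Cyp17a1* the means of 208 CPM in GOAT KO and 130 CPM in WT were carried by GOAT KO 1139 and WT 1120. In the 6 libraries, without these, the means were 77.6 CPM in GOAT KO and 55.2 CPM in WT. The log2 fold change there was 0.48 (SE 0.34). Among leukocyte genes they were *Csf1r*, *Cd68* and *Ptprc* (-0.05, -0.31 and -0.25), and among blood genes *Hbb-bs*, *Hba-a1* and *Hbb-bt* (-0.37, -0.28 and -0.28). The oviduct list was mostly *Wt1* (222 of 229.8 CPM in WT 1118), which granulosa and surface cells of the ovary also express, so its sum does not measure oviduct. In that list *Wt1*, *Ovgp1* and *Muc16* were at -0.21, -0.05 and 0.02. The summed level of the blood list ranged from 146 to 591 CPM in WT, compared with 160 to 336 CPM in GOAT KO.

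Genes around *Hspb7* on chromosome 4 were examined to see whether its neighbourhood moved with it. The 3 nearest tested genes on either side, *Arhgef19*, *Epha2* and *Gm13076* before it and *Zbtb17*, *Spen* and *B330016D10Rik* after it, had log2 fold changes of -0.27, -0.25, -0.14, 0.02, -0.14 and 0.27, and none passed the test (adjusted p between 0.983 and 0.986, edgeR). *Zbtb17*, a transcription factor gene that begins 23875 bases from the *Hspb7* start, measured 48.2 ± 1.90 CPM in WT against 48.9 ± 1.31 CPM in GOAT KO (SD, n = 4 each). Within 5 Mb of *Hspb7*, 101 other genes were tested and 7 (6.93%) were called, 2 higher (*Cela2a* and *C87977*) and 5 lower (*Gm13058*, *Gm13089*, *Gm13103*, *Gm13212* and *Znf41-ps*), with 15 at an unadjusted p under 0.05 and 0 at an adjusted p under 0.05. Of the 16601 genes tested, 1.67% were called and 4.62% had an unadjusted p under 0.05, and the difference from these shares was not tested. DESeq2 also called 7. These 7 were named after their values were seen, and the counts of the *Gm* genes among them are uncertain where near-identical copies share reads. The median log2 fold change in this stretch was -0.01, and the count ranged from 2 without GOAT KO 1140 to 9 without GOAT KO 1139.

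**Figure D5:**
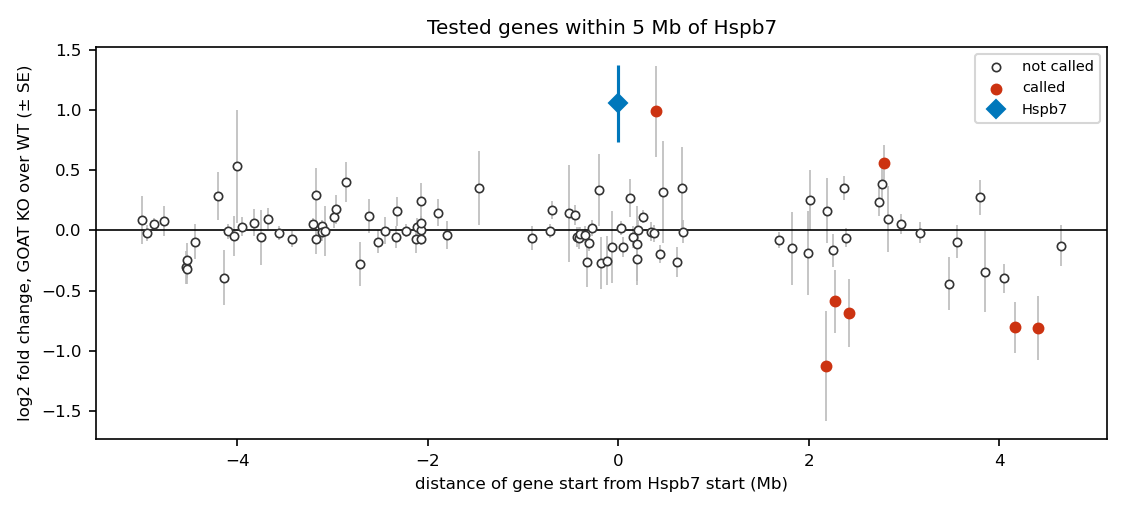
Log2 fold change of GOAT KO over WT (± SE, all 8 libraries) of the 101 tested genes within 5 Mb of *Hspb7* against the distance of their start from that of *Hspb7*; filled circles passed the thresholds and the diamond is *Hspb7* at 1.06. The genes next to *Hspb7* lie near 0, and the 7 called genes all lie beyond it, 2 of them higher.

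The genes whose pattern over the 8 libraries was most like that of *Hspb7* were *Lgi4* (Pearson's r = 0.93), *Spocd1* (0.93), *Tor3a* (0.92), *Ap4b1* (0.92) and *Frzb* (0.92), out of 15458 genes with a mean of at least 1 CPM. Each r is a description over 8 libraries that share the difference in group, and was not tested. The list depended on the measure and the libraries: 0 of these 5 were among the first 5 in the 6 libraries, and 1 (*Spocd1*) was by Spearman's correlation, with *Tor3a* at rank 187 and *Frzb* at rank 589. *Spocd1*, also on chromosome 4 but outside the stretch just described, ranked first by Spearman's rho (0.98), and it measured 2.73, 1.72, 2.09 and 1.47 CPM in WT against 3.05, 6.17, 5.84 and 7.38 CPM in GOAT KO. Like *Hspb7*, it was lowest of the GOAT KO libraries in 1139 and highest in 1146, but its groups did not overlap, which held for 2.92% of genes and for 0 of the 5 members. For *Spocd1* the log2 fold change came to 1.49 (SE 0.28, adjusted p = 0.377, edgeR) in all 8 libraries and to 1.72 (SE 0.22, adjusted p = 0.0157, edgeR) in the 6 libraries. *Frzb*, a secreted Wnt inhibitor, had a log2 fold change of 0.63 (SE 0.22, adjusted p = 0.983, edgeR), and *Lgi4*, *Tor3a* and *Ap4b1* were not called. The genes most like *Cryab* were *Kif1bp* (0.97), *Sh3pxd2b* (0.95), *Noc3l* (0.93), *Dkc1* (0.92) and *Rassf8* (0.92), of which 0 remained among the first 5 in the 6 libraries and 1 by Spearman's correlation (*Dkc1*).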

How the data were processed

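Total RNA of 8 ovaries (4 WT, 4 GOAT KO, 1 mouse per library) was sequenced as single reads. The authors aligned the reads to GRCm38 (mm10) with TopHat2 2.0.14 and deposited the raw read counts for each gene symbol. The deposited counts of junction reads are 1 list per library, and StringTie 1.0.4 transcripts with the authors' FPKM, a deposited attribute used here only for their positions. The counting tool and strand setting are not given in the sources used here. The deposited mapping percentages were not used.

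The analysis used R 4.3.3 and edgeR 4.0.16, with TMM scaling, filterByExpr (the equivalent of 10 counts at median depth in 4 libraries, 15 in all) and the quasi-likelihood test of libraries labelled GOAT KO against WT, adjusted by Benjamini-Hochberg over all genes tested. Called genes had an unadjusted p under 0.05 and a log2 fold change over 0.5 in size, as in the study. Library totals on genes were 16147216 to 19481798. Intervals cover counting error only. Libraries of one group differed beyond sampling noise (chi-square per gene 3.96 to 25.0). Positions and exon lengths come from GENCODE M21, a later release than the M6 of the authors, and start regions from RefSeq, with no entry for *Cryab*. CPM and log2 values were computed here.

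Named were the members, other small heat shock genes, of each list the called genes and the 3 most abundant, the 3 neighbours of *Hspb7* on each side, the 5 genes most like *Hspb7* and *Cryab*, and *Mboat4*. Other genes were named for their role or after their values were seen. Members and lists were chosen with earlier results of these data known. Alternatives were RLE size factors, DESeq2 1.42.0, no filter, 6 libraries, each library left out, transcript length and Spearman's correlation.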

Additional observations from a re-analysis of the deposited data

Results flagged for a closer look

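Extreme single libraries were looked for in 24 groups of 4 (12 genes, WT and GOAT KO separately) by the gap to the nearest library over the whole range (Dixon's 95% critical value), which chance passes in about 1 in 20 groups, and 2 groups passed. *Hspb1* measured 4.10 CPM in GOAT KO 1141 and 2.69 to 2.91 CPM in the other 3 GOAT KO libraries (ratio of gap to range 0.846). *Spen*, a neighbour of *Hspb7*, measured 135 CPM in WT 1118 and 105 to 107 CPM in the other 3 WT libraries (ratio 0.931).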

How the results depend on the processing

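The log2 fold changes of *Hspb7* (1.05 to 1.29) and *Hspb1* (-0.44 to -0.38) kept their direction with RLE size factors, DESeq2, no filter and 6 libraries, and leaving out 1 library gave 0.68 to 1.26 and -0.60 to -0.37. *Hspb6* (-0.09 to 0.08), *Hspb8* (0.00 to 0.20) and *Cryab* (-0.06 to 0.10) stayed near 0 with 1 library left out. Genes at an adjusted p under 0.05 numbered 4, and 13 by DESeq2, 7 with no filter and 20 in the 6 libraries. Without a filter, 691 genes were called (413 higher, 278 lower), and 179 were called lower in the 6 libraries. The called striated muscle genes fell to 1 with DESeq2, no filter and 6 libraries, and the adipose genes to 1 with DESeq2 and 6 libraries. Theca and oviduct genes rose to 1 each with no filter, and granulosa genes to 3 in the 6 libraries. Leaving out 1 library gave 231 to 437 genes called (highest without WT 1120), 137 to 248 higher, 94 to 189 lower and 3 to 14 at an adjusted p under 0.05 (highest without GOAT KO 1139). It gave 0 to 1 called for immediate early, oocyte and oviduct genes, 1 to 2 for striated muscle, 0 to 3 for granulosa, 0 to 2 for theca, 0 to 5 for adipose (0 without GOAT KO 1139) and 2 to 9 within 5 Mb of *Hspb7*. With the longest transcript as length, the log2 difference of *Hspb2* over *Hspb6*, 0.02, turned to -0.088, and leaving out 1 library gave -0.066 to 0.066. In the 6 libraries the differences of *Cryab* and *Hspb2* (0.70), *Hspb8* and *Hspb1* (0.40) and *Hspb1* and *Hspb7* (1.76) no longer passed with fewer libraries (adjusted p = 0.0521, exact permutation test). Of the first 5 genes most like *Hspb7*, 0 were shared with the 6 libraries and 1 with Spearman's correlation, and the same held for *Cryab* (0 and 1). Other causes were not tested. No paired analysis was possible because the labels give animal numbers, which the groups do not share.

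At 26 to 119 counts, *Hspb7* is measured with wide counting error, and whether reads of *Cryab* and *Hspb2* were separated by strand is unknown.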
